A study of Homo sapiens with 24 samples.

Results

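Genes of retinoid metabolism and signalling were followed through every library of the series: DHRS3, DHRS9, RDH10, RDH11, CYP26B1, CRABP2, STRA6, RARA, RARB and RARG. They were taken by symbol, as 10 of the 22227 genes of the ligand experiment and 10 of the 23028 genes of the siRNA experiment. DHRS3 was also on the study's list of genes induced by 10 μM enzalutamide. It was thus chosen by its fold change under enzalutamide in the ligand libraries. Those values are given here as a description without a test. For the other 9 genes the values in view when they were chosen are not recorded, and their adjusted p-values therefore give only the size of a difference against the spread between replicates.

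The libraries were made from LNCaP, an androgen receptor-positive line established from a human prostate cancer metastasis. In the ligand experiment, cells received vehicle, 10 nM dihydrotestosterone (DHT, the natural androgen) for 4 or 24 h, or 10 μM enzalutamide, an androgen receptor antagonist, for 4 or 24 h. In the siRNA experiment, cells were transfected with a pool of GATA2 siRNAs (siGATA2) or of non-targeting siRNAs (siControl), and 72 h later were given enzalutamide at 25 μM, or vehicle, for a further 24 h. All groups are cultures of the same line, no time is given for the vehicle of the ligand experiment, and the enzalutamide doses of the experiments differ. There were 2 libraries per condition in the ligand experiment and 3 per condition in the siRNA experiment. The submitters list 4 vehicle samples in the ligand experiment. Of the 4 deposited vehicle columns, 3 carry replicate number 1, differed from each other by a mean chi-square per gene of 1.53 to 1.56 against 3.56 to 3.74 from the fourth, and were summed as 1 library.

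Retinol is taken up by the cell through the membrane receptor STRA6 and oxidised to retinaldehyde, a reaction in which RDH10 is a principal enzyme. DHRS3 catalyses the reverse reaction, returning retinaldehyde to retinol, and so limits the supply of retinoic acid. Retinoic acid is carried by CRABP2, degraded by CYP26 enzymes such as CYP26B1, and acts through the nuclear receptors RARA, RARB and RARG, which bind DNA as partners of the RXR receptors. RDH11 is a retinaldehyde reductase first cloned as an androgen-regulated gene of the prostate, and DHRS9 is a further retinol dehydrogenase.

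Ligand libraries held 38894876 to 59985287 estimated counts, and the depth of the siRNA libraries, deposited as RPKM (reads scaled to transcript length and to all mapped reads), varied from 0.837 to 1.09 times that of the first siControl vehicle library. The labelled treatments were visible in their usual targets. KLK3, which encodes prostate-specific antigen, was 8.25 times higher after 24 h of DHT and fell to 0.429 of vehicle after 24 h of enzalutamide. GATA2 was at 82.3 ± 4.72 RPKM in siControl and 51.4 ± 4.22 RPKM in siGATA2 cells with vehicle, and at 129 ± 1.97 and 62.1 ± 2.37 RPKM under enzalutamide (SD, n = 3), so the knockdown was partial, and GATA2 itself was higher with enzalutamide in siControl cells. In the ligand experiment GATA2 was lower with enzalutamide at 4 h (-0.39 on the log2 scale, edgeR adjusted p = 0.000198) and at 24 h (-0.19, adjusted p = 0.0089). All 8 luminal and LNCaP markers were present at 1 RPKM or more, whereas the basal, leukocyte and endothelial markers summed to at most 0.113 RPKM. Of the fibroblast markers, COL1A2 and DCN were under 0.1 RPKM and COL1A1 alone was expressed. The libraries of siGATA2 cells with vehicle held one that stood apart a little, replicate 3, whose log2 values scattered about its replicates with an SD of 0.148 against 0.092 to 0.124 in the other libraries.

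Only the siRNA values are scaled by transcript length, so the 10 genes can be ranked against each other there. In siControl cells with vehicle, RDH11 led with a mean of 130 ± 3.11 RPKM (SD, n = 3), above 98.6% of all genes. RARG followed at 19.5 ± 1.35, DHRS3 at 9.30 ± 0.694 and RARA at 6.34 ± 0.461 RPKM. RDH10 lay at 3.04 ± 0.146, CRABP2 at 2.32 ± 0.0815 and RARB at 0.817 ± 0.0712 RPKM. These 7 genes did not overlap with their neighbours in the order. STRA6 at 0.155 ± 0.0393 RPKM and CYP26B1 at 0.101 ± 0.0309 RPKM overlapped, and DHRS9 was listed at 0 in all 3 libraries. The most abundant member therefore reduces retinaldehyde, and RARB was the least abundant of the receptors.

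**Figure D1:**
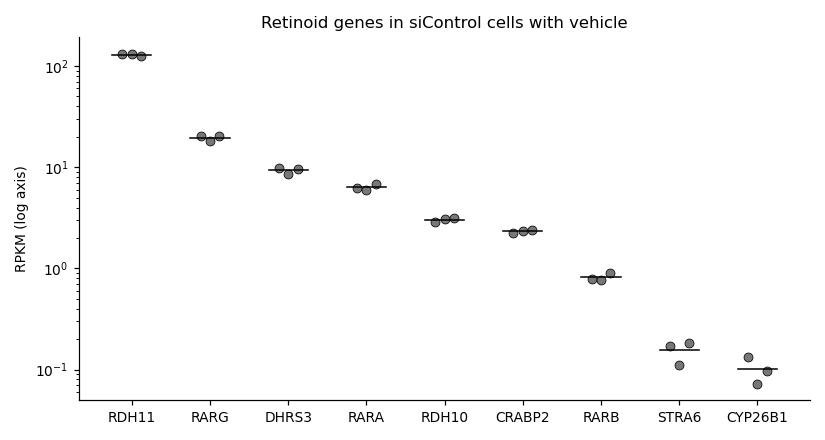
RPKM of the retinoid genes in the 3 siControl libraries with vehicle, on a log axis, with points for libraries and a line at the mean. RDH11 lies highest at 130 RPKM, STRA6 and CYP26B1 overlap near 0.1 RPKM, and DHRS9, listed at 0, cannot be drawn.

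Of the 10 genes, 8 passed the filter on low counts in the ligand experiment (all except STRA6 and DHRS9) and 9 were tested in the siRNA experiment (all except DHRS9). A gene was called at a Benjamini-Hochberg adjusted p under 0.05 over all genes tested. With enzalutamide, 1 of 8 genes was called at 4 h, against 13.6% of all genes tested, and 1 of 8 at 24 h, against 33.4%. With DHT, 1 of 8 was called at 4 h, against 6.77% of all genes, and 5 of 8 at 24 h, against 50%. In siControl cells 3 of 9 genes were called with enzalutamide, against 42.1% of all genes, and in siGATA2 cells 1 of 9, against 0.412%. For siGATA2 against siControl, 6 of 9 were called with vehicle, against 55.6% of all genes, and 5 of 9 under enzalutamide, against 54.5%. DHRS3 was the gene called at 24 h of enzalutamide and the gene called with enzalutamide in siGATA2 cells. It was also among those called in siControl cells and for siGATA2 against siControl. As values of these libraries chose it or may have done so, nothing is read from its part in these counts. The median log2 fold change of the 8 genes was -0.13 after 24 h of enzalutamide and -0.24 after 24 h of DHT, beside 0.015 and 0.0014 over all genes.

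**Figure D2:**
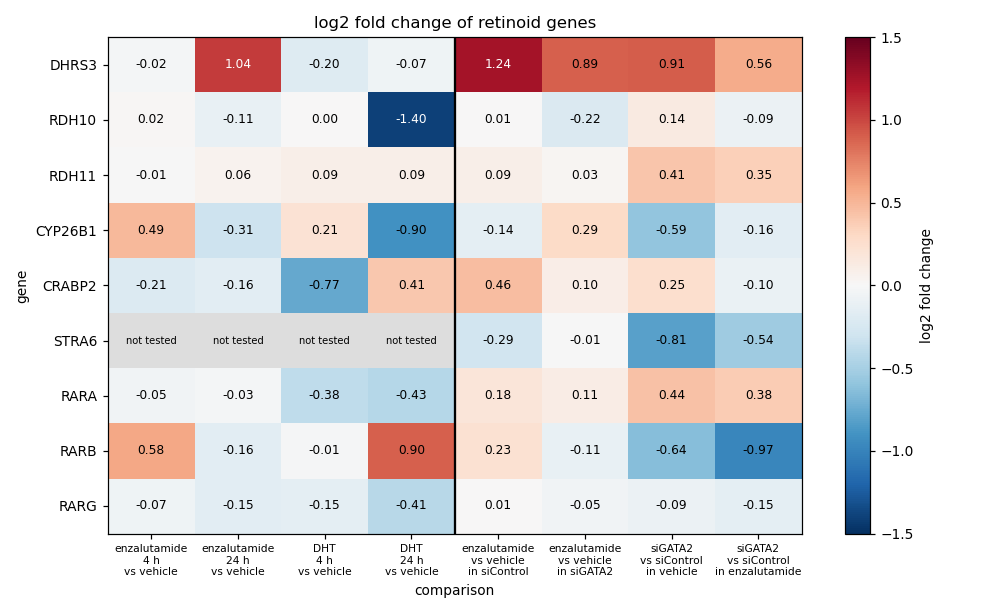
Log2 fold change of 9 retinoid genes in 8 comparisons, with ligand comparisons (8 genes tested) left of the black line and siRNA comparisons right of it. DHRS3 is higher in every enzalutamide comparison at 24 h and with siGATA2, RDH10 stands out at -1.40 after 24 h of DHT, and RARB is higher with both ligands at different times and lower with siGATA2.

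DHRS3 was chosen by its rise under enzalutamide, so agreement between settings here is a description and not independent support. It was higher after a day of enzalutamide in all 3 settings in which this was measured, and also when GATA2 was reduced. In the ligand experiment it was at 5.37 and 6.07 CPM (counts scaled to library size) in vehicle, 5.95 and 5.25 CPM after 4 h of enzalutamide, and 12.01 and 11.43 CPM after 24 h. The 24 h libraries lay above every other library, and the 4 h libraries overlapped with vehicle. The log2 fold change was -0.02 at 4 h (SE 0.114) and 1.04 at 24 h (SE 0.105, 2.06-fold). The deposited column names carry a prefix, ZC1 to ZC3, whose meaning is not given, and both 24 h libraries share theirs with 1 vehicle column. Against that column alone the log2 ratios were 1.38 and 1.32, above the 1.04 of the model. That column, ZC3, held 90 counts of DHRS3 before scaling for depth, beside 132 and 103 in the ZC1 and ZC2 columns of vehicle replicate 1.

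With DHT, DHRS3 was at 5.28 and 4.65 CPM at 4 h and 5.05 and 5.86 CPM at 24 h. The 4 h libraries lay just under both vehicle libraries, and the 24 h libraries overlapped with vehicle. Set against vehicle, the log2 fold change was -0.20 at 4 h (SE 0.113) and -0.07 at 24 h (SE 0.114), given without a test because these vehicle libraries are also the reference of the enzalutamide fold change. Against the vehicle columns of the same prefix, the 4 h libraries gave log2 ratios of -0.18 to -0.38. Of the 24 h libraries one gave -0.14, and the other gave 0.33 against the ZC3 column used above for enzalutamide.

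In the siRNA experiment DHRS3 lay at 4 separate levels. Its values were 9.87, 8.53 and 9.51 RPKM in siControl cells with vehicle, and 21.7, 22.8 and 21.8 RPKM with enzalutamide. In siGATA2 cells they were 18.4, 18.7 and 15.6 RPKM with vehicle and 31.8, 34.1 and 32.1 RPKM with enzalutamide. None of the 4 conditions overlapped with another. With enzalutamide the mean was 2.38-fold higher in siControl cells. In siGATA2 cells DHRS3 was 1.86-fold higher with enzalutamide (log2 fold change 0.89, SE 0.0708), where 84 of 20369 genes were called. Whether these libraries entered the choice of this gene is not recorded, so the value is given without a test. Without replicate 3 of the siGATA2 vehicle libraries, this log2 fold change was 0.81 with 0.371% of all genes called, and without replicate 2 it was 0.94 with 0.158% called.

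With siGATA2 in vehicle the mean of DHRS3 was 1.89 times that of siControl (log2 fold change 0.91, SE 0.0708), and under enzalutamide the log2 difference was 0.56 (SE 0.0708). Both are given without a test, because the siControl libraries they are set against may have entered the choice of the gene. Cells with both treatments had 3.51 times the level of cells with neither. The response to enzalutamide was smaller in siGATA2 than in siControl cells by 0.35 on the log2 scale (SE 0.1001), also given without a test. COL1A1, the expressed fibroblast marker, rose beside it from 10.1 ± 0.483 to 14.7 ± 1.80 RPKM with siGATA2 in vehicle (SD, n = 3; limma adjusted p = 0.000287). It also rose to 12.4 ± 0.588 RPKM with enzalutamide in siControl cells (adjusted p = 0.0167), and its part in these results was not tested.

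**Figure D3:**
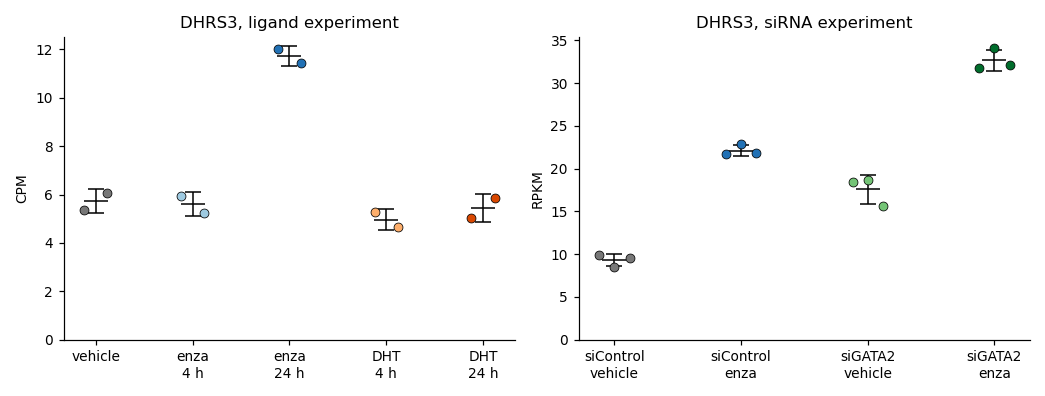
DHRS3 in each library, in CPM for the ligand experiment and in RPKM for the siRNA experiment, with points for libraries and bars for the mean ± SD (n = 2 and n = 3; enza, enzalutamide). The 24 h enzalutamide libraries at 11.43 and 12.01 CPM lie apart from the rest on the left, and on the right the siGATA2 libraries with enzalutamide lie highest, between 31.8 and 34.1 RPKM.

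The genes most like DHRS3 over the 9 conditions were found by Pearson's r of the log2 condition means, each experiment centred on its own mean, among 2373 genes with a mean of at least 1 CPM and 1 RPKM and at least 0.5 of the spread of DHRS3. They were ALS2CL (r = 0.959), FAHD2CP (r = 0.931), TYMP (r = 0.928), PHF1 (r = 0.890) and LTC4S (r = 0.889). TYMP encodes thymidine phosphorylase, PHF1 a chromatin protein of the Polycomb group and LTC4S leukotriene C4 synthase. FAHD2CP is a pseudogene with near-identical copies, so its reads are uncertain. The coefficients rest on 9 points that share control libraries and were picked as the highest, and they carry no p-value.

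RefSeq (GRCh38.p14) gives 3 start sites for DHRS3, on the minus strand of chromosome 1. The 250 bases before each start were searched on both strands for the half-sites AGGTCA or AGTTCA or GGGTCA or GGTTCA, to which retinoic acid receptors bind in pairs, for the GATA sites AGATAA or AGATAG or TGATAA or TGATAG, and for the androgen receptor half-site AGAACA. A retinoid half-site is held by 33.8% of the 35116 windows of this length in the table, a GATA site by 22.3% and AGAACA by 12.4%. Of the 3 DHRS3 windows, 2 hold 1 retinoid half-site each, and the GATA and androgen letters are not in any of them. These 2 windows, shown because DHRS3 is the gene the results turn on, are printed with the half-site in capitals (on the opposite strand in the second), and which start the transcripts used was not measured.
DHRS3, chr1:12616790-12617039, minus strand: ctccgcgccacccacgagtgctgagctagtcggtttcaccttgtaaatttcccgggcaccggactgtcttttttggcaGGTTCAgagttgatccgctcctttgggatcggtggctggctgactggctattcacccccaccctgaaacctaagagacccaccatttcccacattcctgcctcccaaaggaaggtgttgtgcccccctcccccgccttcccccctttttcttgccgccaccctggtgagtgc
DHRS3, chr1:12596614-12596863, minus strand: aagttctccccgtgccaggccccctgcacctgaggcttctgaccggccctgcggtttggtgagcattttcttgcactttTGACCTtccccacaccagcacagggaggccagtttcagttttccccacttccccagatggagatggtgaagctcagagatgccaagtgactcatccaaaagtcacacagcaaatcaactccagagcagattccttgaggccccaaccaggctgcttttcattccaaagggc

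Among the enzymes that form and reduce retinaldehyde, RDH10 fell with DHT at 24 h and RDH11 rose with siGATA2. RDH10, which supplies retinaldehyde, was at 56.3 and 57.2 CPM in vehicle and at 57.5 and 56.2 CPM after 4 h of DHT. After 24 h of DHT it was at 21.8 and 21.3 CPM, far under every other library. This was a fall to 0.380 of vehicle (log2 fold change -1.40, SE 0.0469, adjusted p = 9.48e-11), while at 4 h the log2 fold change was 0.0022 (adjusted p = 0.988). Against the vehicle column with the same prefix, the 24 h libraries gave log2 ratios of -1.35 and -1.44. COL1A1 was lower beside it, at 23.9 ± 0.447 CPM in vehicle and 15.2 ± 1.24 CPM after 24 h of DHT (SD, n = 2; -0.65, adjusted p = 5.1e-05), and its part in the result was not tested. With enzalutamide RDH10 was at 56.6 and 58.1 CPM at 4 h and 51.4 and 53.6 CPM at 24 h. The 24 h libraries lay under both vehicle libraries, but the difference of -0.11 did not pass the threshold (adjusted p = 0.0611), and it did with RLE factors (adjusted p = 0.035).

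RDH10 changed little with siRNA. It was at 3.04 ± 0.146 RPKM in siControl cells with vehicle, 3.05 ± 0.0596 with enzalutamide, 3.36 ± 0.248 in siGATA2 cells with vehicle and 2.86 ± 0.127 with both (SD, n = 3). The siGATA2 libraries did not overlap between vehicle and enzalutamide (log2 fold change -0.22, SE 0.0591), and this did not pass the adjustment over all genes (adjusted p = 0.187).

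RDH11 varied by a few percent with the ligands, from 687 and 701 CPM in vehicle to 740 and 735 CPM after 24 h of DHT. The log2 fold change of 0.09 at 24 h passed the test (SE 0.0269, adjusted p = 0.0157), and without TMM factors it was 0.03 (adjusted p = 0.383). With siRNA it was at 131, 132 and 126 RPKM in siControl cells with vehicle and at 139, 137 and 137 RPKM with enzalutamide. In siGATA2 cells it was at 165, 170 and 183 RPKM with vehicle and 177, 171 and 180 RPKM with enzalutamide. Every siGATA2 library lay above every siControl library. RDH11 rose 1.33-fold with siGATA2 in vehicle (log2 fold change 0.41, SE 0.0386, adjusted p = 5.47e-06) and 1.28-fold under enzalutamide (0.35, adjusted p = 1.81e-05). DHRS9 had 1 count in each of 2 ligand libraries, 0.0063 RPKM in 1 siRNA library and 0 in all others, so nothing can be said of it beyond this limit.

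**Figure D4:**
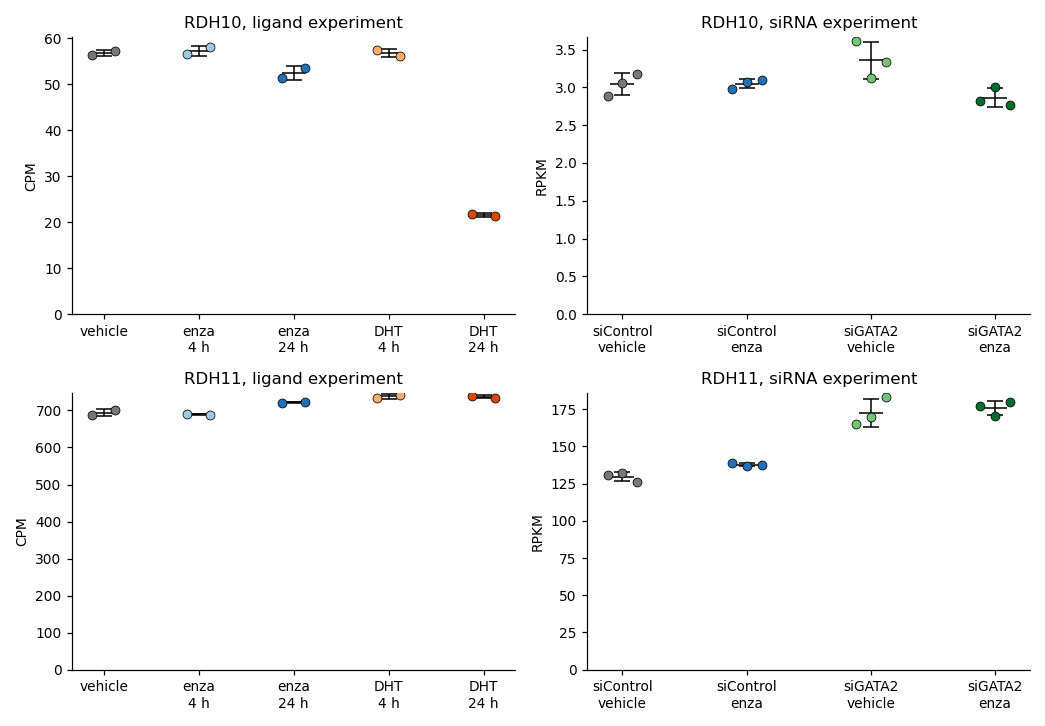
RDH10 and RDH11 in each library, in CPM for the ligand experiment and RPKM for the siRNA experiment, with points for libraries and bars for the mean ± SD (n = 2 and n = 3). RDH10 falls from about 57 CPM to 21.3 and 21.8 CPM after 24 h of DHT, and RDH11 is higher in all 6 siGATA2 libraries.

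Uptake, transport and degradation rested on weakly expressed genes. STRA6, the retinol uptake receptor, had 0 to 3 counts per ligand library and was not tested there. In the siRNA libraries its RPKM values are whole multiples of a fixed step, within 0.15 of a read, which gave 64, 41 and 58 reads in siControl cells with vehicle and 37, 35 and 46 with enzalutamide. In siGATA2 cells it had 10, 21 and 19 reads with vehicle and 21, 14 and 16 with enzalutamide. The siGATA2 libraries lay under all siControl libraries. The mean RPKM with siGATA2 was 0.287 of siControl in vehicle and 0.402 under enzalutamide. On the scale of log2(RPKM + 0.1), which understates changes at this level, the differences were -0.81 (SE 0.114, adjusted p = 0.000117) and -0.54 (SE 0.114, adjusted p = 0.00216). With enzalutamide in siControl cells STRA6 did not pass the threshold (-0.29, adjusted p = 0.0697), and the libraries overlapped.

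CYP26B1, which degrades retinoic acid, had 43, 23 and 26 reads in siControl cells with vehicle and 18, 8 and 6 in siGATA2 cells with vehicle. Its mean RPKM in siGATA2 cells was 0.333 of siControl, and the difference on the log2 scale was -0.59 (SE 0.143, adjusted p = 0.00479). Under enzalutamide the reads were 29, 27 and 19 in siControl and 23, 23 and 16 in siGATA2 cells, which overlapped (-0.16, adjusted p = 0.386). The decrease passed the test in vehicle and not under enzalutamide, and the difference between the settings was 0.43 (SE 0.203, adjusted p = 0.155), so the settings were not shown to differ. With 2 to 16 counts per ligand library, no ligand effect on CYP26B1 passed the threshold.

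CRABP2, which carries retinoic acid to the nucleus, was at 2.23, 2.33 and 2.40 RPKM in siControl cells with vehicle and 3.01, 3.13 and 3.58 RPKM with enzalutamide. The groups did not overlap, and CRABP2 rose 1.40-fold (log2 fold change 0.46, SE 0.104, adjusted p = 0.00471). In siGATA2 cells it was at 2.97, 3.13 and 2.32 RPKM with vehicle and 2.88, 3.23 and 2.91 RPKM with enzalutamide, which overlapped (0.10, adjusted p = 0.793). The difference between these responses was -0.36 (SE 0.148, adjusted p = 0.106) and passed without replicate 3 of the siGATA2 vehicle libraries (-0.48, adjusted p = 0.0086). In the ligand experiment it had 8 to 19 counts per library and neither ligand differed from vehicle past the threshold.

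The receptors responded separately, and RARB did so most. RARB was at 3.93 and 3.61 CPM in vehicle, 5.69 and 5.65 CPM after 4 h of enzalutamide and 3.59 and 3.21 CPM after 24 h. With DHT it was at 3.64 and 3.87 CPM at 4 h and 7.35 and 6.73 CPM at 24 h. Enzalutamide at 4 h and DHT at 24 h lay above all other libraries and did not overlap with each other. The rise with enzalutamide was 1.498-fold at 4 h (log2 fold change 0.58, SE 0.110, adjusted p = 0.00427), and at 24 h the log2 fold change was -0.16 (adjusted p = 0.334). With DHT the order was reversed, with -0.01 at 4 h (adjusted p = 0.970) and a 1.86-fold rise at 24 h (0.90, SE 0.107, adjusted p = 1.35e-05). Against the vehicle columns with the same prefix, enzalutamide at 4 h gave log2 ratios of 0.46 and 0.45, and DHT at 24 h gave 0.81 and 0.72.

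RARB fell with siGATA2. It was at 0.783, 0.769 and 0.899 RPKM in siControl cells with vehicle and 0.978, 0.989 and 0.948 RPKM with enzalutamide. In siGATA2 cells it was at 0.499, 0.568 and 0.408 RPKM with vehicle and 0.423, 0.435 and 0.481 RPKM with enzalutamide. All siGATA2 libraries lay under all siControl libraries. The mean with siGATA2 was 0.602 of siControl in vehicle (log2 fold change -0.64, SE 0.105, adjusted p = 0.000365) and 0.459 under enzalutamide (-0.97, SE 0.105, adjusted p = 1.56e-05). In siControl cells the enzalutamide libraries lay above the vehicle libraries (0.23, SE 0.105), short of the threshold (adjusted p = 0.111). With a pseudocount of 1 in place of 0.1 this passed (0.12, adjusted p = 0.0372).

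RARB is a classical target of retinoic acid receptors itself. Of its 4 windows of 250 bases, on the plus strand of chromosome 3, the window at chr3:25428013-25428262 (GRCh38.p14, RefSeq) holds a pair of retinoid half-sites repeated in the same direction 5 bases apart. Such a pair is in 0.074% of the 35116 windows, 26 in all, and in 1 of the 23 windows of the 9 retinoid genes searched. The window is shown with the whole repeat in capitals, which begins 53 bases before the start, and the match is a description of the letters, not of binding.
RARB, chr3:25428013-25428262, plus strand: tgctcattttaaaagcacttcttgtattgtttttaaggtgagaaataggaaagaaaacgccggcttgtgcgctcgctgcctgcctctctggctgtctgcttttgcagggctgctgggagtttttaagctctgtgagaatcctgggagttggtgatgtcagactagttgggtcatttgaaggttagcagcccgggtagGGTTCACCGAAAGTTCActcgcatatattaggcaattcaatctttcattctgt

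RARA was lower with DHT and higher with siGATA2. It was at 13.7 and 13.6 CPM in vehicle, 11.2 and 9.79 CPM after 4 h of DHT and 9.68 and 10.7 CPM after 24 h, and the DHT libraries lay under all others. The log2 fold change was -0.38 at 4 h (SE 0.0852, adjusted p = 0.0156) and -0.43 at 24 h (SE 0.0871, adjusted p = 0.00118). The call at 4 h was lost without vehicle replicate 1 (adjusted p = 0.0913), vehicle replicate 2 (0.0757) or DHT replicate 2 (0.223). With enzalutamide RARA was at 12.4 and 14.0 CPM at 4 h and at 13.1 and 13.7 CPM at 24 h, on either side of vehicle or overlapping with it, and the log2 fold changes of -0.05 (adjusted p = 0.757) and -0.03 (adjusted p = 0.823) did not pass the threshold.

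In siControl cells RARA was at 6.29, 5.91 and 6.83 RPKM with vehicle and 7.004, 7.354 and 7.147 RPKM with enzalutamide. In siGATA2 cells it was at 9.06, 8.85 and 8.04 RPKM with vehicle and 8.98, 9.69 and 9.34 RPKM with enzalutamide, above every siControl library. RARA rose 1.36-fold with siGATA2 in vehicle (log2 fold change 0.44, SE 0.058, adjusted p = 6.85e-05) and 1.30-fold under enzalutamide (0.38, SE 0.058, adjusted p = 0.000233). The rise with enzalutamide in siControl cells was 0.18 (adjusted p = 0.0313), and the call was lost without siControl vehicle replicate 1 (0.0762) or 2 (0.112), and without siControl enzalutamide replicate 2 (0.0954) or 3 (0.0668).

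RARG, the most abundant of the receptors, was at 14.4 and 15.0 CPM in vehicle and 10.5 and 11.6 CPM after 24 h of DHT, a lower level (log2 fold change -0.41, SE 0.0682, adjusted p = 0.000226). After 4 h of DHT it was at 13.54 and 12.99 CPM, which did not pass the threshold (-0.15, adjusted p = 0.249). With enzalutamide it was at 13.9 and 14.1 CPM at 4 h and at 13.2 CPM in both libraries at 24 h, under both vehicle libraries but short of the threshold (-0.07, adjusted p = 0.577, and -0.15, adjusted p = 0.094). With siRNA it lay between 17.0 and 20.3 RPKM in the 12 libraries. Under enzalutamide the siGATA2 libraries, at 17.0 to 18.8 RPKM, lay under the siControl libraries, at 19.1 to 20.1 RPKM, and the difference of -0.15 was short of the threshold (adjusted p = 0.056). It passed without siControl vehicle replicate 2 (0.0275), siGATA2 vehicle replicate 3 (0.0336) or siGATA2 enzalutamide replicate 2 (0.0272). In vehicle, where the groups overlapped (-0.09, adjusted p = 0.227), it passed without siControl vehicle replicate 2 (-0.15, adjusted p = 0.0449). RARA and RARG were therefore lower and RARB higher after the same 24 h of DHT.

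**Figure D5:**
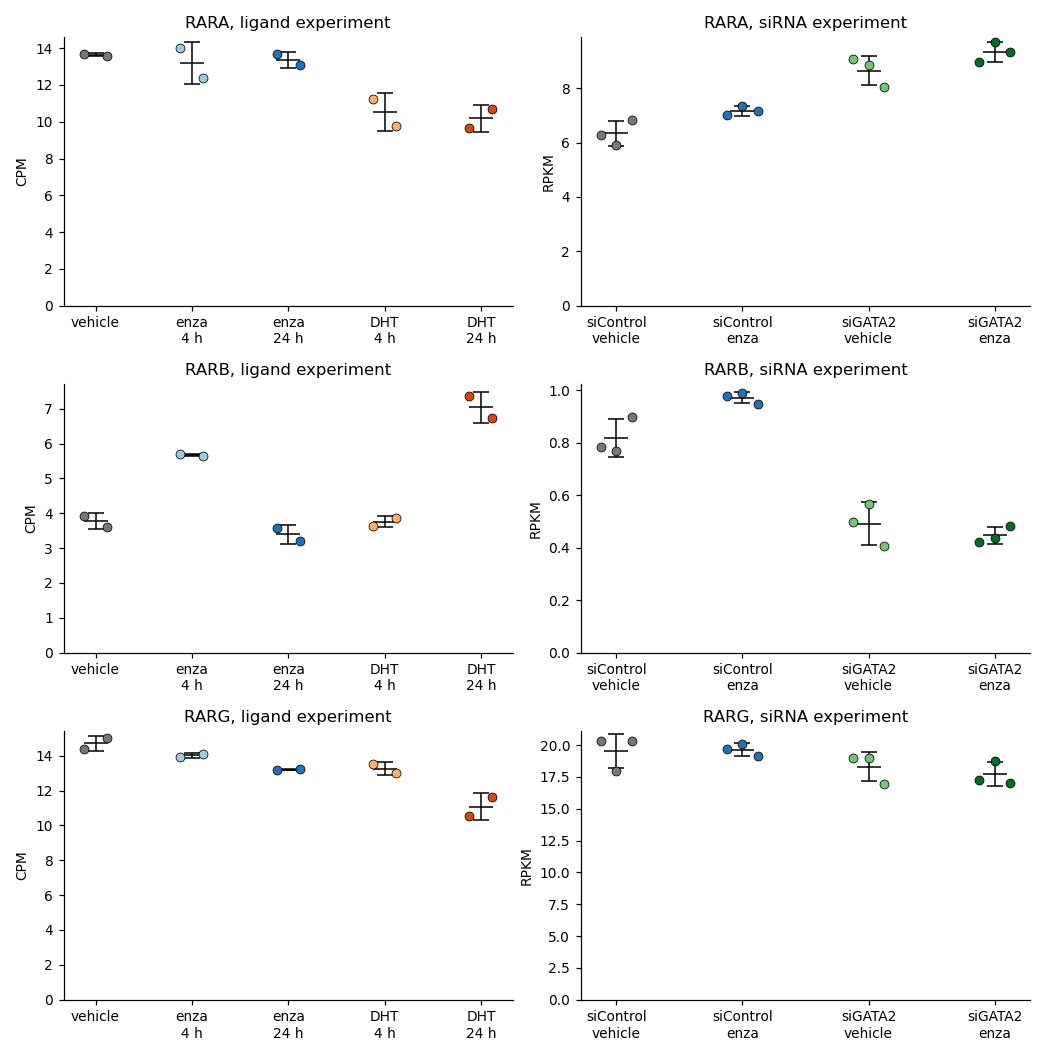
RARA, RARB and RARG in each library, in CPM for the ligand experiment and RPKM for the siRNA experiment, with points for libraries and bars for the mean ± SD (n = 2 and n = 3). RARB is highest at 24 h of DHT (6.73 and 7.35 CPM) and at 4 h of enzalutamide (5.65 and 5.69 CPM), and it is lowest in siGATA2 cells, where RARA is highest.

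The ligands were also compared directly at matched times, with the caution that these comparisons share libraries with those above. At 4 h, 3 of 8 genes were called for DHT against enzalutamide, beside 15.8% of all genes: RARA was lower (-0.33, adjusted p = 0.0213), RARB was lower (-0.60, adjusted p = 0.00199) and RDH11 higher (0.10, adjusted p = 0.0243) with DHT. Without DHT replicate 2 at 4 h, RARB alone was called. At 24 h, 5 of 8 were called, beside 64.9%. RARB was higher with DHT (1.05, adjusted p = 1.69e-06), and RDH10 (-1.28, adjusted p = 4.67e-11), RARA (-0.40, adjusted p = 0.0013) and RARG (-0.26, adjusted p = 0.00479) were lower. DHRS3 was lower with DHT by a log2 difference of -1.11 (SE 0.106), given without a test. The call of RARG was lost without DHT replicate 1 at 24 h (adjusted p = 0.0884). Between the times of one ligand, 3 of 8 genes were called for enzalutamide (DHRS3, RARB and RDH10), beside 24.6% of all genes, and 4 of 8 for DHT (CRABP2, RARB, RARG and RDH10), beside 49.8%. For the difference in the response to enzalutamide between siGATA2 and siControl cells, the 1 of 9 genes called was DHRS3, beside 25.8% of all genes, and the count varied from 0 to 3 when single libraries were left out. Nothing is read from the DHRS3 calls here, since the contrasts bear on its choice or may do so.

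Around the 10 genes, 54 further genes of retinoid oxidation, retinoic acid synthesis and degradation, binding and storage, receptor partners and retinoic acid response were listed, of which 30 were tested in the ligand and 46 in the siRNA experiment. Enzalutamide called 2 of 30 at 4 h (1 higher, 1 lower), beside 13.6% of all genes, and 5 of 30 at 24 h (2 higher, 3 lower), beside 33.4%. DHT called 7 of 30 at 4 h (5 higher, 2 lower), beside 6.77% of all genes, and 17 of 30 at 24 h (8 higher, 9 lower), beside 50%. In siControl cells enzalutamide called 13 of 46 (6 higher, 7 lower), beside 42.1%, and in siGATA2 cells 3 of 46, all higher, beside 0.412%. The knockdown called 23 of 46 in vehicle (11 higher, 12 lower), beside 55.6%, and 26 of 46 under enzalutamide (13 in each direction), beside 54.5%. The median log2 fold change of these genes lay between -0.07 and 0.07 in all 13 comparisons, near that of all genes.

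Among them, ALDH1A3 and ADH1C rose with DHT at both times. ALDH1A3, which oxidises retinaldehyde to retinoic acid, was at 46.5 ± 2.14 CPM in vehicle, 81.6 ± 0.372 CPM after 4 h and 116 ± 1.12 CPM after 24 h of DHT (SD, n = 2). Its log2 fold changes were 0.81 (adjusted p = 8.07e-08) and 1.31 (adjusted p = 1.54e-10), and no other gene of its list passed the count filter. Of the 9 tested oxidoreductases, 5 were called after 24 h of DHT, all higher, beside 50% of all genes, and RDH10, described above, fell at that time. ADH1C, an alcohol dehydrogenase, rose from 0.168 ± 0.0663 to 5.33 ± 0.336 CPM (SD, n = 2; log2 fold change 4.87, SE 0.239, adjusted p = 3.69e-09). ADH1B was also called (3.94, adjusted p = 0.000187), but it shares long stretches with ADH1C and reads of the pair may have been split between them. NR2F1, a nuclear receptor gene responsive to retinoic acid, had at most 0.279 CPM there and was lower (-2.07, SE 0.715, adjusted p = 0.0278).

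In siControl cells the largest of these changes with enzalutamide, on the scale of log2(RPKM + 0.1), were falls of the retinoic acid-responsive RARRES2 (-1.25, adjusted p = 0.00221) and MEIS1 (-0.63, adjusted p = 0.003) and of ADH1C (-0.72, adjusted p = 0.000345), all at a mean under 1.1 RPKM. With siGATA2 in vehicle, NR2F1 fell from 16.8 ± 0.0247 to 5.82 ± 0.0391 RPKM (SD, n = 3; -1.52, adjusted p = 5.82e-10), RDH16 by 1.57 on the log2 scale (adjusted p = 3.14e-05) and CRABP1, the paralog of CRABP2, by 1.49 (adjusted p = 0.000271). Under enzalutamide, the retinol-binding protein gene RBP5 had the largest rise with siGATA2 on the scale of log2(RPKM + 0.1), from 7.56 ± 0.394 to 22.1 ± 1.02 RPKM (SD, n = 3; 1.53, adjusted p = 1.04e-08), while CRABP1 (-1.25, adjusted p = 0.000915) and NR2F1 (-1.10, adjusted p = 4.59e-09) were lower again. That scale understates low genes, and CYP26A1, which degrades retinoic acid, went from 0.0539 ± 0.0156 to 0.211 ± 0.0544 RPKM there (SD, n = 3; 1.00, adjusted p = 0.00017), a larger ratio of means than that of RBP5. With vehicle RBP5 was also higher in siGATA2 cells, at 21.5 ± 0.462 RPKM beside 8.69 ± 0.811 RPKM in siControl cells (SD, n = 3). Of the 10 tested genes of retinoic acid response, 5 were higher and 3 lower with siGATA2 in vehicle, beside 55.6% of all genes called.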

How the data were processed

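RNA-seq libraries of LNCaP cells were taken from 2 experiments and mapped to conditions by their labels, with 0 columns of sample values unused. Per the labels the reads were aligned to hg19 with TopHat2 2.0 and quantified in Partek, and the annotation version is not given in the sources used here. For the ligand experiment the authors deposited estimated counts per gene, which were rounded, and a gene missing from a table was set to 0. For the siRNA experiment the authors deposited RPKM, which holds no counts, so count tests were not run there.

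For the counts, edgeR 4.0.16 (R 4.3.3) fitted one quasi-likelihood model (TMM factors, default filter, 15555 genes, 10 libraries, 5 conditions). For the RPKM values, limma 3.58.1 fitted log2(RPKM + 0.1) with a trended prior variance. This model covered 12 libraries in 4 conditions and the 20369 genes detected in 3 or more libraries. DESeq2 1.42.0 was an alternative for the deposited counts. P-values are two-sided and adjusted by the Benjamini-Hochberg method over all genes tested, and standard errors of edgeR values were derived from its F statistic. Nothing in the sources says that the siRNA replicates were separate cultures, so p-values measure the spread between these libraries. Both steps were tested on simulated data.

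The 10 genes and the gene lists were chosen with earlier results of these data known. Named beyond the 10 genes were at most 3 listed genes per comparison, by the size of log2 fold changes of at least 0.5 among called genes without overlap of the groups, the 5 genes most like DHRS3, and KLK3 and GATA2 as checks. CYP26A1 under enzalutamide was added outside this rule, and COL1A1, COL1A2 and DCN were named as fibroblast markers. Windows were cut from RefSeq promoter sequences (GRCh38.p14), and those used here cover 9 of the 10 genes, all except RDH10. A chromosome was left out of the windows of the 10 genes and was kept among the 35116 windows. The conditions share replicate numbers. As a check of pairing, the residuals of libraries with the same number correlated between -0.140 and 0.115 (ligand) and between -0.342 and 0.280 (siRNA). They exceeded 0.1 in every pair for siGATA2 against siControl with enzalutamide (0.113, 0.241 and 0.148). The same held for DHT at 24 h against vehicle (0.115), where the pairs give the same value by construction with 2 libraries per condition. The replicate block was therefore an alternative. Figures were drawn with matplotlib 3.10.9.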

Additional observations from a re-analysis of the deposited data

Results flagged for a closer look

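Responses that differed between times or between siRNAs were singled out by the test of the difference itself. For DHRS3 that test served only to list it here, and nothing is read from its calls. Between 24 and 4 h of enzalutamide, RARB differed by a log2 value of -0.74 (SE 0.111, edgeR adjusted p = 0.000339), with both 24 h libraries under both 4 h libraries. RDH10 differed by -0.13 there (adjusted p = 0.0471), a call that was lost with DESeq2 (0.0708) and without enzalutamide replicate 1 at 24 h (0.264). Calls over all genes in this comparison were 24.6%. DHRS3 differed by 1.07 (SE 0.106), given without a p because enzalutamide values chose it.

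Between 24 and 4 h of DHT, 49.8% of all genes were called. RDH10 differed by a log2 value of -1.40 (SE 0.0466, adjusted p = 2.21e-10) and RARB by 0.91 (SE 0.106, adjusted p = 1.17e-05). RARG differed by -0.27 (adjusted p = 0.00551), which did not pass without DHT replicate 1 at 4 h (0.0506) or at 24 h (0.0725). CRABP2 differed by 1.18 (adjusted p = 0.0139) at 8 to 19 counts per library, which did not pass with DESeq2 (0.158), without DHT replicate 1 at 4 h (0.0952) or without DHT replicate 2 at 24 h (0.0816).

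The response of DHRS3 to enzalutamide differed between siGATA2 and siControl cells by -0.35 on the log2 scale (SE 0.1001), beside 25.8% of all genes called for this difference. It is given without a p because values of these libraries may have entered the choice of the gene. The difference lay between -0.431 and -0.288 with single libraries left out. No support is drawn from its call, which was lost without siControl vehicle replicate 2 or siControl enzalutamide replicate 2. The same held without siGATA2 vehicle replicate 1 or 2, or siGATA2 enzalutamide replicate 1 or 3. No group had 4 or more libraries, so single libraries were not tested as outliers.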

How the results depend on the processing

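The count of called retinoid genes moved by over 1.5 times in 5 of 11 comparisons. With 24 h of enzalutamide it was 2 in place of 1, with RDH10 added, under RLE factors, with the 4 vehicle columns as 4 samples or with the ZC1 column alone as vehicle replicate 1 (the last chosen after seeing the data), and 1 to 2 when libraries were left out in turn. With 4 h of DHT it was 2 in place of 1 with the 4 vehicle columns and 0 to 2 with libraries left out. It was 0 there without vehicle replicate 1 or 2 or DHT replicate 2. For DHT against enzalutamide at 4 h the range was 1 to 3. With enzalutamide in siControl cells it was 5 in place of 3 at a pseudocount of 1. For the difference in response between siGATA2 and siControl cells it was 2 in place of 1 with TMM scaling, and 0 to 3 with libraries left out. It was 0 without siControl enzalutamide replicate 2 or siGATA2 vehicle replicate 1 or siGATA2 enzalutamide replicate 1 or 3, and 3 without siGATA2 vehicle replicate 3. The cause of these changes was not tested. No called value changed sign under the alternatives run. Among values of single genes, 25 of 1120 alternatives in the ligand and 11 of 810 in the siRNA experiment lost a call. With the replicate block, RARA with enzalutamide in siControl cells was no longer called (adjusted p = 0.0598), nor was RDH10 between 24 and 4 h of enzalutamide (0.0708), and no other call of the 10 genes changed. Other scalings moved the median of all genes by at most 0.0612 (log2). With 2 libraries per ligand condition and at most 19 counts, changes of CRABP2, CYP26B1, STRA6 and DHRS9 were not detectable unless large.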

Other observations

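STRA6 had 0 to 3 counts per library in the ligand experiment, where the libraries held 38894876 to 59985287 counts, and 41 to 64 reads per siControl library with vehicle in the siRNA experiment. NR2F1 was at 0.198 and 0.279 CPM in the ligand vehicle libraries and at 16.8 to 16.9 RPKM in siControl cells with vehicle, and CRABP1 was at 0 to 0.0254 CPM and 0.317 to 0.534 RPKM. The units of the experiments differ, and only the cells of the siRNA experiment were transfected. The paper also gives different sequencing instruments and sites for them. The levels were not compared by a test.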
